A study of Mus musculus with 8 samples.

Results

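Wdr68-knockout mouse embryonic stem cells (ESC) were compared with the cells that the same knockout cells gave after differentiation towards neural progenitor cells (NPC). Genes were taken into the comparison where at least 2 of the 4 knockout libraries reached 1 FPKM (fragments counted relative to transcript length and to library depth), and 12431 of 24306 gene symbols did so. The knockout ESC group and the knockout NPC group each had 2 libraries, and 4 wild-type libraries of the same stages (2 ESC, 2 NPC) served as the reference. All cells were of the E14 mouse ESC line. The libraries labelled knockout are of cells with a Wdr68 knockout, and that gene is listed as Dcaf7; how the knockout was made and how many clones were used is not given in the sources used here. ESC were grown with serum, the cytokine LIF and inhibitors of MEK and GSK3. They were then aggregated in hanging drops, kept in suspension, and treated with retinoic acid before RNA was taken. The labels speak of duplicates but not of separate cultures, so every p-value below measures library-to-library spread that may be only technical.

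The knockout libraries were alike in depth and in the agreement within a group. The fragment numbers estimated from the deposited values were 7244587 and 7813677 for knockout ESC and 7409975 and 7802754 for knockout NPC. Wild-type ESC had 6413435 and 6820808, and the wild-type NPC pair was less even, at 7942644 and 5996677. Over all 8 libraries, a gene near 1 FPKM rested on a median of 21.8 to 29 fragments. Across genes, log2(FPKM + 1) correlated at 0.971 between the knockout ESC libraries, at 0.964 between the knockout NPC libraries and at 0.739 to 0.745 between the stages. Genes are not independent replicates, so these values are descriptions. Just inside the expression limit lay Lif, whose second-highest library had 1.0 FPKM, and just outside it lay Zfp112, whose second-highest library had 0.9996 FPKM. A gene that is silent in ESC entered the comparison only if both NPC libraries reached the limit, so a rise was built into the selection of such genes. There were 1439 genes at 1 FPKM or more in both knockout NPC libraries and in no knockout ESC library, and 688 with the reverse pattern.

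The name NPC is the label's, and most defining neural progenitor genes were low in the libraries that carry it. Of 6 such genes, Nes, an intermediate filament of progenitor cells, stood at 25.4 and 22.4 FPKM in the knockout NPC libraries. The transcription factor Sox1 stood at 0.269 and 0.651 FPKM. Hes5, a Notch target of dividing progenitors, stood at 0.40 and 0.53 FPKM and did not pass the expression limit. The transcription factors Sox2 and Pax6 and the lipid-binding protein Fabp7 lay between 1.15 and 3.10 FPKM in these libraries. "Knockout NPC" below therefore names only how the cells were treated and labelled.

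WDR68 is a WD40-repeat scaffold protein. It binds the kinases DYRK1A and HIPK2 and is found in CUL4 ubiquitin ligases, and it is also part of a form of Polycomb repressive complex 1 that contains PCGF3 or PCGF5 and AUTS2 and that, unlike other Polycomb complexes, can activate genes. Embryonic stem cells keep their state through a network of transcription factors led by OCT4 (Pou5f1), SOX2 and NANOG. When LIF and the inhibitors are withdrawn, aggregated cells leave that state and form derivatives of all germ layers. Retinoic acid, bound by nuclear receptors at direct-repeat sites in DNA, turns on Hox genes in the order of their position and favours neural fates.

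The targeted gene was checked first in every library. Dcaf7 stood at 2.80 and 2.26 FPKM in the knockout ESC libraries and at 8.36 and 8.99 FPKM in the knockout NPC libraries. In wild-type cells its mean was 13.3 FPKM in ESC and 28.4 FPKM in NPC. The knockout libraries were below the wild-type libraries of their stage, and the NPC libraries were above the ESC libraries in both genotypes. Transcript from the locus (mm9 chr11:105898186-105920637) was thus still counted in the knockout and was 1.46 ± 0.12 higher (log2, SE; adjusted p = 1.8e-05) after differentiation. The values do not tell which part of the transcript the fragments came from.

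In the knockout, 9046 of 12431 genes differed between NPC and ESC (72.8% of the genes tested, limma, Benjamini-Hochberg adjusted p below 0.05). Of these, 5297 were higher in NPC (42.6%) and 3749 were lower (30.2%). A change of at least 2-fold in FPKM + 1 was reached by 2779 genes that rose (22.4%) and 1576 that fell (12.7%), and 224 genes rose and 175 fell at least 10-fold. The knockout libraries of the stages did not overlap for 10756 genes (86.5%), with both NPC libraries above ESC for 50.1% of the genes tested and both below for 36.5%. The median change over all genes tested was 0.17 on the log2(FPKM + 1) scale, and this shift depends on the scaling. With libraries rescaled by the median ratio of their genes, 4483 genes rose and 4521 fell. With quantile normalization, 4436 rose and 4210 fell. Counts for ribosomal protein, oxidative phosphorylation and proteasome genes are therefore given below with quantile normalization as well. Those for DNA replication genes are not given with either rescaling. The added 1 FPKM understates the change of genes at low levels. Counts of rises and falls in the lists below are to be read beside the 42.6% and 30.2% of all genes tested. Counts of changes that differed from the wild type are to be read beside 8.31% more positive and 5.71% more negative over all genes tested.

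Among called genes with a mean of at least 5 FPKM in the higher group and no overlap between the groups, and without predicted genes, histones and small RNAs, the largest rises were led by H19, Igf2, Hba-x, Hbb-y, Hbb-bh1, Igfbp5 and Hoxa5. They cover a maternally expressed imprinted RNA, its neighbouring growth factor gene, embryonic globins, a binding protein of insulin-like growth factors and a Hox factor. The largest falls were led by Dppa5a, Trh, Spp1, Pou5f1, Zfp42, Tdh and Tdgf1, most of them known for their expression in ESC. The range ran from 9.17 for H19 to -9.27 for Dppa5a.

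Genes of the stem cell state fell. All 18 core pluripotency genes tested fell, with a median change of -6.08 against 0.17 over all genes, and all 17 genes of the naive state fell, with a median of -3.74. Summed over the core list, FPKM went from 4882 to 5200 in the ESC libraries to 19.9 to 20.1 in the NPC libraries. Because bulk RNA was measured, fewer cells expressing a gene and less RNA per cell cannot be told apart here or in any result below.

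Pou5f1, which encodes OCT4, stood at 841 and 859 FPKM in the knockout ESC libraries and at 1.95 and 1.40 FPKM in the knockout NPC libraries. The groups were far apart, and the change was -8.32 ± 0.16 (adjusted p = 3.6e-08). Nanog stood at 406 and 415 FPKM in ESC and at 1.91 and 2.06 FPKM in NPC. Both NPC libraries were near the expression limit, a change of -7.11 ± 0.20. Zfp42, the ESC marker also called Rex1, went from 409.8 and 430.0 FPKM to 1.24 and 0.656 FPKM, a change of -7.77 ± 0.20. Dppa5a, an RNA-binding protein gene of early embryos, had the highest ESC levels of these genes. It went from 1672 and 1892 FPKM to 2.80 and 1.17 FPKM, a change of -9.27 ± 0.44. Sox2, which ESC share with neural progenitors, stood at 77.5 FPKM in both ESC libraries and at 1.15 and 2.47 FPKM in NPC. Its change of -4.85 ± 0.19 (adjusted p = 5.5e-07) compared with -1.51 in the wild type, where the mean went from 88.1 to 30.2 FPKM, and the genotypes differed by -3.33 ± 0.28 (adjusted p = 0.00053). Among the 18 core genes, the change passed the test of a difference between the genotypes for Sox2 only, with all 8 libraries in the fit.

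The promoters of Nanog and Zfp42 are shown because they carry motifs that OCT4 is known to bind, next to genes that fell to near the expression limit. The windows are the 250 bases before a RefSeq start site on GRCm38.p6, read along the gene. Capitals mark a composite Oct-Sox match at 75 to 62 bases before the start of Nanog (chr6:122707239-122707488, plus strand) and an octamer (ATTTGCAT) at 186 to 179 bases before the start of Zfp42 (chr8:43307010-43307259, minus strand).
Nanog: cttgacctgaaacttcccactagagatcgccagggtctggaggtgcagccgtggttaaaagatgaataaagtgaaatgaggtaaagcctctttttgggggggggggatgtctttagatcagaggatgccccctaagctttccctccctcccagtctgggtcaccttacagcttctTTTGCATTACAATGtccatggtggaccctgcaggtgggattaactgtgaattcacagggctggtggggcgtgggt
Zfp42: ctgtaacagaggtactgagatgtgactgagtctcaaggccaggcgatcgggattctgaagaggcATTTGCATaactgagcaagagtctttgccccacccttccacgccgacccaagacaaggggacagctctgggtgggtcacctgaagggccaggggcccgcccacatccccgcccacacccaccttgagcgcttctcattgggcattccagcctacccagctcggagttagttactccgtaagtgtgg
Nanog has a further RefSeq start site, and the same match lies 151 to 138 bases before it (window chr6:122707315-122707564). The composite, searched on both strands, was found in 7 of 32851 windows of this length (0.0213%). Among tested genes these were Nanog, Bcat1 (-4.37), Fam169a (-2.07) and Hoxb1 (3.67), so 3 fell and 1 rose. The octamer, which overlaps other POU-factor sites, was in 526 windows (1.6%). Of 141 tested genes with it, 64 rose, 40 fell and 37 did not pass the test, with a median change of 0.25. A match is a stretch of letters, not a measured binding site.

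**Figure D1:**
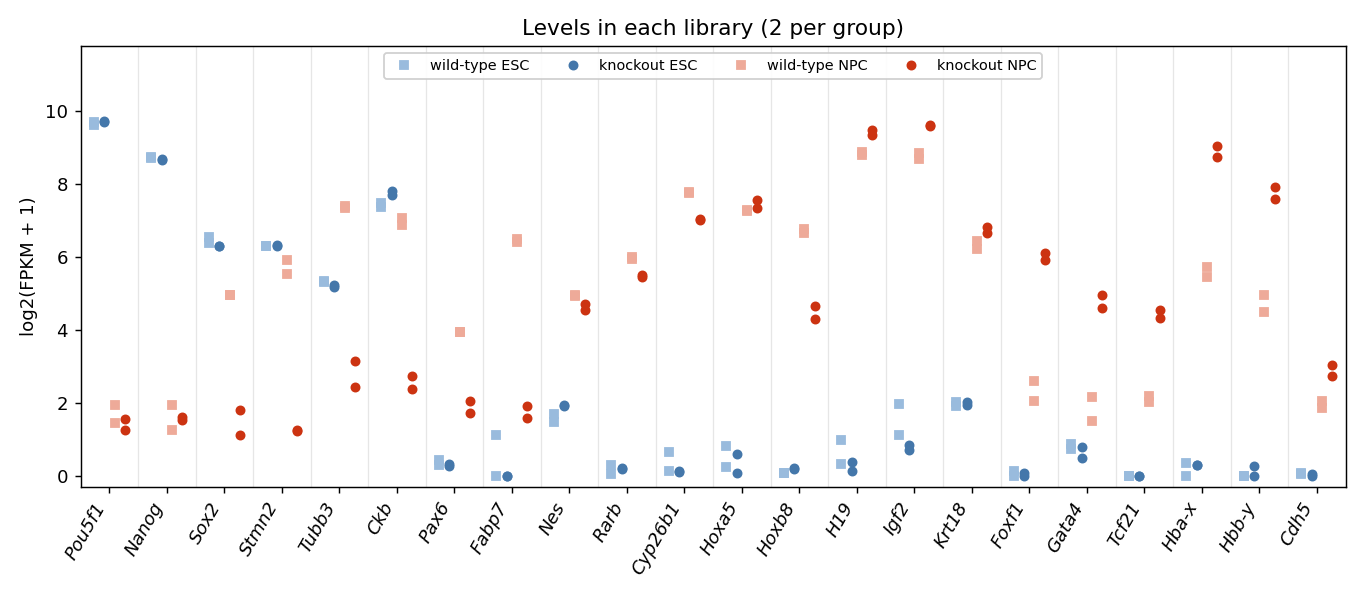
Level of 22 genes in each of the 8 libraries, as log2(FPKM + 1), with 1 point per library and a colour per group. In knockout NPC, Pou5f1 (1.95 and 1.40 FPKM), Nanog, Sox2 and the neuronal genes Stmn2 and Ckb sit far below knockout ESC, while Rarb, Hoxa5, H19, Igf2, Foxf1 and the globins Hba-x and Hbb-y sit far above knockout ESC.

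Genes that respond to retinoic acid rose. Of 21 tested response genes (22 listed), 19 rose and 2 fell, with a median change of 3.60. The change was more negative in the knockout than in the wild type for 7 and more positive for 4. Summed, they went from 95.5 to 100 FPKM in ESC to 829.9 to 841.5 FPKM in NPC. Rarb, a retinoic acid receptor gene that is itself a target of its receptor family, stood at 0.150 and 0.140 FPKM in ESC and at 44.3 and 42.5 FPKM in NPC. Both NPC libraries were high, and the change was 5.28 ± 0.11 (adjusted p = 5.7e-08). Cyp26b1, which degrades retinoic acid, reached 129.7 and 131.0 FPKM, a change of 6.93. Cyp26a1, another degrading enzyme, was listed at 0 and 0.110 FPKM in ESC and reached 12.3 and 16.4 FPKM, a change of 3.86 ± 0.17. In wild-type NPC its mean was 60.7 FPKM, and the change was smaller in the knockout by -1.96 ± 0.24 (adjusted p = 0.0027). Crabp2, a carrier of retinoic acid in the cytoplasm, went from 1.47 and 2.38 FPKM to 30.8 and 47.6 FPKM, against a wild-type NPC mean of 224.3 FPKM. The genotypes differed by -2.57 ± 0.31 (adjusted p = 0.0027). The uptake receptor Stra6 (3.60), the retinal reductase Dhrs3 (5.74) and the nuclear receptor Nr2f1 (4.36) also rose. The 2 response genes that fell were Rarg, a receptor gene already at a mean of 27.4 FPKM in ESC, by -1.47, and Cdx1. Cdx1, a homeobox gene of the caudal family, stood at 30.0 and 28.1 FPKM in ESC and was listed at 0 in both NPC libraries.

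The promoter windows of Rarb and Cyp26a1 are shown because both hold the DR5 element, a pair of receptor half-sites in direct repeat, close to the start of genes that rose. Hbb-y is shown with them as a globin gene whose window also matched. Capitals mark the match, at 53 to 37 bases before the start of Rarb (GRCm38.p6 chr14:16575477-16575726, minus strand), 32 to 16 before Cyp26a1 (chr19:37697558-37697807, plus strand) and 133 to 117 before Hbb-y (chr7:103853208-103853457, minus strand).
Rarb: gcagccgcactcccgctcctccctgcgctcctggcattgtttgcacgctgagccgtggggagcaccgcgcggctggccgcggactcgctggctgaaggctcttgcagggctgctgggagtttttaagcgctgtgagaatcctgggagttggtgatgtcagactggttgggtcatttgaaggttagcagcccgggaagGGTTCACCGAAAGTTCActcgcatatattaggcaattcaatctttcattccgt
Cyp26a1: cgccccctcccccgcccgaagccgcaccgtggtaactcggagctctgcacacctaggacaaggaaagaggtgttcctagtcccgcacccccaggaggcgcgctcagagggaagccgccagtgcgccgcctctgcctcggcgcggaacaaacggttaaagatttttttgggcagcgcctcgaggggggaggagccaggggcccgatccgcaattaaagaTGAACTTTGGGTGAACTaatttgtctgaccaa
Hbb-y: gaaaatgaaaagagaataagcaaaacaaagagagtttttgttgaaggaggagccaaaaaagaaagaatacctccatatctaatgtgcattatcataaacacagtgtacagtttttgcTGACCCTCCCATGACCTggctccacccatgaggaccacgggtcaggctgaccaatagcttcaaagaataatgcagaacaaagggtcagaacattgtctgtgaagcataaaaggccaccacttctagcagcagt
The element, searched on both strands, was in 29 of 32851 windows (0.0883%) and in those of 6 tested genes. Of these, Hbb-y (7.63), Rarb (5.28), Cyp26a1 (3.86), Tnfsf13b (2.46) and Blvrb (0.44) rose and Syndig1 (-1.15) fell. Genes without a match in this window may hold the element elsewhere.

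Hox genes, which give cells their position along the body axis, rose from near 0. All 15 genes of paralog groups 1 to 5 passed the expression limit and all 15 rose, with a median change of 5.14. Their sum went from 3.14 to 3.64 FPKM in ESC to 710.8 to 748.7 FPKM in NPC. Of the 24 genes of groups 6 to 13, 13 passed the limit. Of those, 11 rose, the 2 that fell were Hoxc12 and Hoxc13, and the median was 2.46. Hoxa5 stood at 0.0556 and 0.520 FPKM in ESC and at 187.6 and 161.6 FPKM in NPC, a change of 7.11, and Hoxa4 rose by 6.62. Hoxb2 was listed at 0 in both ESC libraries and reached 62.5 and 66.7 FPKM. The cofactors Meis1 and Meis2 rose with them. Meis1 reached 51.7 and 48.2 FPKM, a change of 5.19, and Meis2 reached 47.9 and 42.5 FPKM, a change of 4.22.

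Some members of the A, B, C and D clusters rose less than in the wild type. Hoxb8 stood at 0.152 and 0.143 FPKM in ESC and at 18.8 and 24.3 FPKM in NPC, against a wild-type NPC mean of 104.8 FPKM. The difference in change was -2.38 ± 0.19 (adjusted p = 0.00049). Hoxb9 went from 1.34 and 1.92 FPKM to 9.60 and 18.6 FPKM, against 193.0 FPKM in wild-type NPC, a difference of -3.52 ± 0.36 (adjusted p = 0.0014). Both knockout NPC libraries were above ESC and far below wild-type NPC for each of these genes. Hoxd4 differed by -2.50 ± 0.15 (adjusted p = 0.00022) and Hoxd3 by -2.54 (adjusted p = 0.0021). In the A cluster, Hoxa6 stood at 2.78 and 3.74 FPKM in knockout NPC, against a wild-type NPC mean of 36.3 FPKM. In the C cluster, Hoxc6 stood at 9.67 and 9.34 FPKM, against 40.7 FPKM. Other members of these clusters were higher in knockout NPC, with means of 133.4 against 87.5 FPKM for Hoxa4 and 52.2 against 38.6 FPKM for Hoxc5. Over groups 6 to 13 the change was smaller in the knockout for 8 of 13 genes and larger for 2. Over groups 1 to 5 it was smaller for 6 of 15 and larger for 2. Over all genes the change was more negative in the knockout for 5.71% and more positive for 8.31%. With 0.1 FPKM added in place of 1, the smaller changes numbered 3 and 2. Hoxb13 went the other way, with 26.8 and 28.4 FPKM in knockout NPC against a mean of 3.38 FPKM in wild-type NPC. That difference was 2.25 (adjusted p = 0.0116) and was lost with 0.1 FPKM added (adjusted p = 0.554).

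**Figure D2:**
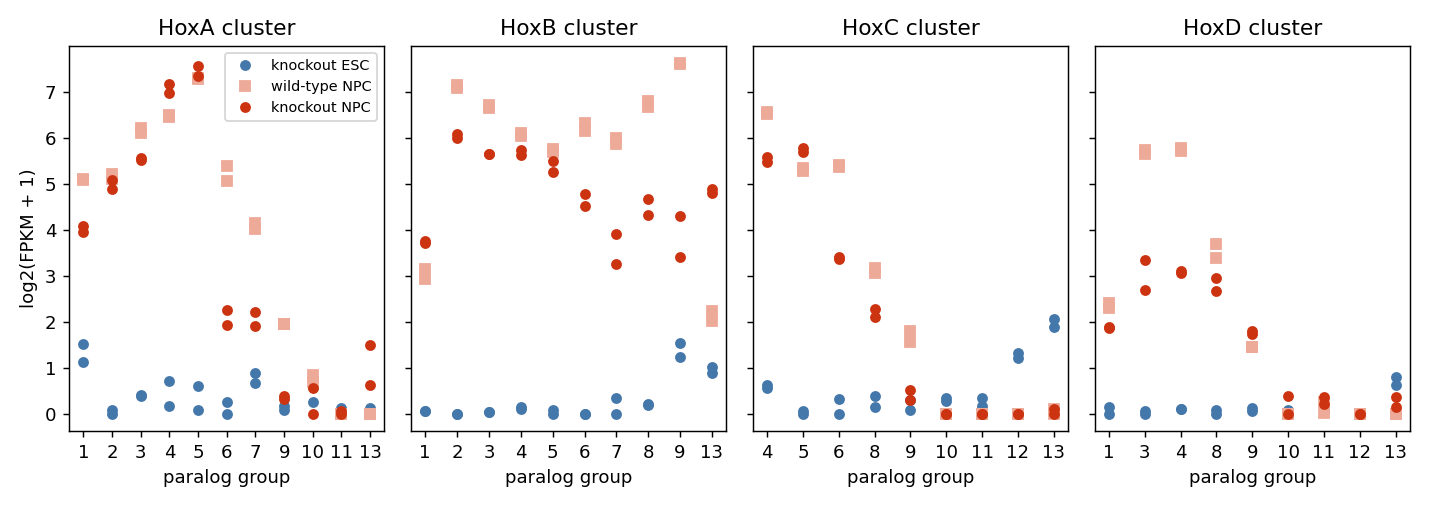
Level of every Hox gene by paralog group in the A, B, C and D clusters, as log2(FPKM + 1), with a colour each for ESC and NPC of the knockout and for NPC of the wild type. All 15 genes of groups 1 to 5 lie higher in knockout NPC than in knockout ESC. Hoxb8 (18.8 and 24.3 FPKM), Hoxb9 (9.60 and 18.6 FPKM), Hoxd3 and Hoxd4 lie below wild-type NPC and Hoxb13 (26.8 and 28.4 FPKM) lies above it.

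Neural progenitor genes rose less than in the wild type. Of 27 listed, 16 passed the expression limit in the knockout. Among these, 11 rose and 5 fell, and the median change was 1.22, against 3.04 for the same genes in the wild type. The change was more negative in the knockout for 13 of the 16 and more positive for 0, and leaving out any 1 library left 10 or 11. Of the 11 genes below the limit, 9 were at 1 FPKM or more in both wild-type NPC libraries. With the limit applied over all 8 libraries, 25 were tested, of which 14 rose, 5 fell and 22 had a more negative change in the knockout. The summed level of the list went from 251.6 to 277.3 FPKM in knockout ESC to 358.7 to 373.2 FPKM in knockout NPC. Of the defining genes, Nes gave 25.4 and 22.4 FPKM of the knockout NPC sum and the others at most 3.10 FPKM each. Most of that sum thus came from other listed genes.

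Pax6, a transcription factor of neural and eye progenitors, stood at 0.246 and 0.212 FPKM in knockout ESC and at 2.27 and 3.10 FPKM in knockout NPC. It rose by 1.58, but the wild-type NPC mean was 14.3 FPKM and the difference in change was -2.01 ± 0.20 (adjusted p = 0.0012). Fabp7, a lipid-binding protein of radial glia, was listed at 0 in both ESC libraries and stood at 2.78 and 2.02 FPKM in NPC. The wild-type NPC mean was 87.1 FPKM. The difference was -4.15 (adjusted p = 0.0016), and -3.32 (adjusted p = 0.178) with 0.1 FPKM added. Nes rose in the knockout from 2.76 and 2.86 FPKM to 25.4 and 22.4 FPKM, a change of 2.71. Prom1, a membrane protein of progenitor cells, rose by 2.91. Sox1, which marks early neural cells, fell from 1.26 and 1.18 FPKM to 0.269 and 0.651 FPKM, a change of -0.62 that did not pass the test without knockout NPC replicate 1 (-0.43, adjusted p = 0.0602). Zic2, a zinc-finger factor of the early neural plate, fell from 7.81 and 6.64 FPKM to 0.249 and 0.437 FPKM, a change of -2.61, and differed from the wild type by -3.01. All 4 tested members of its family had a more negative change in the knockout. Nes and Prom1 were thus higher in knockout NPC, and Sox2 and Zic2 were lower.

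Neuronal genes moved in both directions. Of 32 listed, 17 passed the limit in the knockout, and all 15 others were at 1 FPKM or more in both wild-type NPC libraries. Among the 17, 6 rose, 5 fell and 6 did not pass the test. The median was 0.24, close to the 0.17 of all genes, and 2.48 in the wild type. The change was more negative in the knockout for 15 of 17, also with any 1 library left out, and more positive for 1. With the expression limit applied over all 8 libraries, all 32 were tested, of which 15 rose, 6 fell and 30 had a more negative change in the knockout. The summed level of the list went from 143.6 to 145.1 FPKM in ESC to 54.3 to 67.4 FPKM in NPC.

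Tubb3, the neuronal class III beta-tubulin, stood at 36.8 and 35.0 FPKM in knockout ESC and at 4.42 and 7.85 FPKM in knockout NPC. It fell by 2.41 (SE 0.19), whereas the wild-type mean went from 39.1 to 165.0 FPKM, a difference of -4.46 ± 0.27 (adjusted p = 0.00022). Stmn2, a regulator of microtubules in growing axons, went from 77.7 and 79.6 FPKM to 1.37 and 1.33 FPKM, a change of -5.09 ± 0.12. In the wild type its mean went from 78.1 to 52.3 FPKM, a change of -0.58, and the genotypes differed by -4.50. Ckb, the brain form of creatine kinase, went from 206.2 and 226.5 FPKM to 5.67 and 4.17 FPKM, a change of -5.21, and differed from the wild type by -4.76. These 3 genes were expressed in ESC and were lower in both knockout NPC libraries. Map2, a microtubule protein of dendrites, rose from 0.192 and 0.05 FPKM to 3.14 and 3.64 FPKM, against 46.2 FPKM in wild-type NPC, a difference of -3.24. Dcx, of migrating neurons, rose by 1.41, with a difference of -3.19. Tagln3 changed by 0.66 without passing the test (adjusted p = 0.086). Isl1 was the exception, a LIM-homeobox gene of motor neurons and of cardiac and pharyngeal mesoderm. It went from 0.761 and 0.262 FPKM to 14.6 and 14.1 FPKM, a change of 3.37 against 1.70 in the wild type. Of 10 tested neural crest genes (15 listed), 6 rose and 2 fell, and 6 had a more negative change in the knockout.

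Some genes of lateral and intermediate mesoderm rose further than in the wild type. Of 19 tested (22 listed), 16 rose and 1 fell, with a median of 2.99 against 1.69 for the same genes in the wild type. The change was more positive in the knockout for 9 of 19 and more negative for 1. With 0.1 FPKM added in place of 1, it was more positive for 4 and more negative for 0. Of the 3 genes below the limit, 2 were at 1 FPKM or more in both wild-type NPC libraries. With the limit applied over all 8 libraries, 21 were tested, and the medians were 2.35 in the knockout and 2.03 in the wild type. Of these, 9 had a more positive and 3 a more negative change in the knockout. Foxf1, a forkhead factor of lateral plate mesoderm, stood at 0.0419 and 0 FPKM in ESC and at 67.8 and 59.5 FPKM in NPC, a change of 5.98 ± 0.19 (adjusted p = 2.1e-07). The wild-type NPC mean was 4.11 FPKM, and the difference was 3.72 ± 0.27 (adjusted p = 0.00035). Fendrr, the non-coding RNA transcribed from the neighbouring divergent promoter, reached 26.1 and 25.7 FPKM, with a difference of 3.51. Whether counting used strand is not given in the sources used here. For both genes the knockout NPC libraries were above every other library. Tcf21, a basic helix-loop-helix factor of coelomic and organ mesenchyme, was listed at 0 in both ESC libraries and reached 22.5 and 18.9 FPKM, with a difference of 2.34 ± 0.18 (adjusted p = 0.00046). Gata4, a zinc-finger factor of heart, mesothelium and endoderm, went from 0.729 and 0.409 FPKM to 30.0 and 23.5 FPKM, a change of 4.14 and a difference of 3.11 ± 0.33 (adjusted p = 0.0016). All 5 tested Gata genes rose. Gata6 rose by 4.28, the growth factor receptor Pdgfra by 3.89 and Wt1, a factor of kidney and mesothelium, by 4.58.

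Of 11 tested cardiac and smooth muscle genes (18 listed), 8 rose and 1 fell. Tnnt2, cardiac troponin T, was listed at 0 in both ESC libraries and stood at 6.11 and 5.52 FPKM in NPC, with a difference from the wild type of 2.44 ± 0.16 (adjusted p = 0.00025). Tnni1, the slow troponin I of embryonic heart, rose by 3.49. The atrial myosin light chain gene Myl7 fell by 2.55. Of 7 tested genes of primitive streak and paraxial mesoderm (19 listed), 4 rose and 3 fell.

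Embryonic globins and other blood genes rose. Of 13 tested blood genes (19 listed), 12 rose and 0 fell, with a median of 2.53. The change was more positive in the knockout for 10, and for only 5 with 0.1 FPKM added in place of 1. The sum of the list went from 5.07 to 7.23 FPKM in ESC to 1153 to 1435 FPKM in NPC and was led by globin transcripts. Hba-x, the embryonic alpha-like zeta-globin gene, stood at 0.235 and 0.220 FPKM in ESC and at 430.3 and 525.2 FPKM in NPC, a change of 8.60 ± 0.16 (adjusted p = 3.5e-08). The wild-type NPC mean was 47.4 FPKM, and the difference was 3.18 ± 0.22 (adjusted p = 0.00031), or 2.56 (adjusted p = 0.0733) with 0.1 FPKM added. Hbb-y, the embryonic beta-like globin gene, went from 0 and 0.210 FPKM to 193.8 and 242.2 FPKM, a change of 7.63 ± 0.18. Both knockout NPC libraries were far above both ESC libraries for each embryonic globin. Hba-a1 reached 125.1 and 272.1 FPKM, with an SE of 1.36. It is a near-identical copy of Hba-a2, and reads can be split between them. Tal1, the transcription factor that starts blood and endothelial development, went from 0.0927 and 0.108 FPKM to 4.72 and 4.78 FPKM, with a difference of 2.30 ± 0.20 (adjusted p = 0.00074). The erythroid factors Gata1 and Klf1 stayed below 1 FPKM in every knockout library.

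Of 15 tested endothelial genes (18 listed), 13 rose and 2 fell. The change was more positive in the knockout for 8, and for only 3 with 0.1 FPKM added in place of 1. Over all genes tested, 42.6% rose and 8.31% had a more positive change in the knockout, and the limit favours rises among genes silent in ESC. Cdh5, the cadherin of endothelial junctions, rose by 2.87 and the VEGF receptor Kdr rose by 1.58, from 0.266 and 0.365 FPKM to 2.97 and 2.87 FPKM. Pecam1, an adhesion molecule that ESC also express, fell by 1.17. Tek, the angiopoietin receptor, rose by 0.87 in the knockout and changed by -0.63 in the wild type, a difference of 1.51.

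Epithelial genes rose as a group. Of 15 tested (18 listed), 13 rose and 2 fell, and the sum went from 169.3 to 172 FPKM in ESC to 603.9 to 653.6 FPKM in NPC. The change was more positive in the knockout for 9, but for as few as 3 with 1 library left out. Krt18, a keratin of simple epithelia, went from 3.03 and 2.84 FPKM to 100.4 and 112.3 FPKM, a change of 4.77. The tight-junction gene Cldn6 went from 2.43 and 2.14 FPKM to 95.8 and 107.4 FPKM, a change of 4.96. All 10 tested claudins rose, while 13 others of the 23 listed were below the expression limit. Epcam, an adhesion molecule of epithelia and ESC, rose from 6.61 and 7.87 FPKM to 36.0 and 40.4 FPKM. Cdh1, E-cadherin, fell by 1.35, from 95.2 and 93.9 FPKM to 32.6 and 40.7 FPKM. Krt18 and Cldn6 were thus high in both NPC libraries and E-cadherin was lower than in ESC.

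Of 18 tested genes of extraembryonic endoderm (29 listed), 13 rose and 5 fell. The markers set for this cell type were divided. Gata4 and Gata6 rose, while Sox17, Afp and Ttr stayed below 1 FPKM in every knockout library. Of 6 tested genes of definitive endoderm (13 listed), 3 rose and 3 did not pass the test. Foxa2, a forkhead factor of endoderm and floor plate, was listed at 0 in ESC and stood at 3.27 and 2.80 FPKM in NPC, a change of 2.01. Of 5 tested trophoblast genes 2 rose and 2 fell, and of 9 tested germline genes 7 fell and 1 rose. The one that rose was Rec8, a meiotic cohesin, from 7.59 and 6.96 FPKM to 67.5 and 69.4 FPKM.

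Of 17 tested genes of fibrillar and mesenchymal matrix (24 listed), 14 rose and 3 fell. Of 44 listed collagen genes, 22 were below the expression limit and 21 of the 22 tested rose, a count to which the limit itself contributed for genes silent in ESC. Col3a1 went from 0.0174 and 0.114 FPKM to 42.6 and 35.6 FPKM, a change of 5.23 against 5.60 in the wild type. Sparc, a matrix glycoprotein, rose from 57.1 and 61.6 FPKM to 130.7 and 113.6 FPKM, a change of 1.03 against 0.02 in the wild type and a difference of 1.0 (adjusted p = 0.0029). Cxcl12, a chemokine of mesenchyme, rose by 6.10. ESC may be kept on fibroblast feeders, so a list of fibroblast genes was examined. Of its 15 genes, 5 passed the limit and all 5 rose, and the sum was 8.36 to 8.74 FPKM in ESC and 80.5 to 93.4 FPKM in NPC. Of its defining genes, Lum, Dcn and Postn were listed at 0 in both knockout ESC libraries, and these and Thy1 stood at 1.1 FPKM or less in knockout NPC. The part of feeder cells in the matrix values was not tested.

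**Figure D3:**
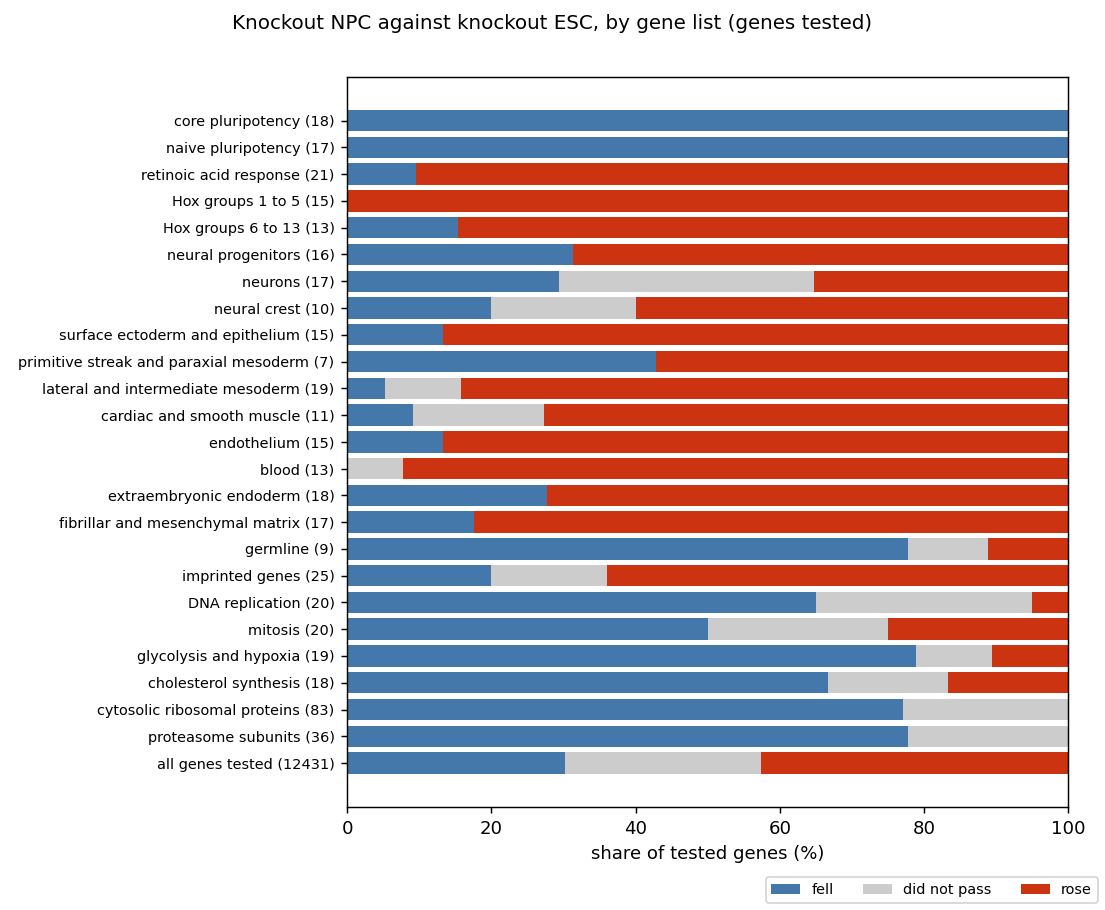
Share of the tested genes of each list that rose, did not pass the test or fell from knockout ESC to knockout NPC, in percent, with the number of tested genes in parentheses. All 12431 genes (42.6% higher, 30.2% lower) are the reference bar; pluripotency lists are wholly in the falling class, Hox groups 1 to 5 wholly in the rising class, and neurons are divided among all classes.

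Imprinted genes and the insulin-like growth factor axis held several of the largest rises. Of 25 tested imprinted genes (30 listed), 16 rose and 5 fell, with a median of 1.56. H19, a maternally expressed non-coding RNA, went from 0.0893 and 0.292 FPKM to 712.4 and 657.0 FPKM, a change of 9.17 ± 0.20. Igf2, the growth factor gene next to it, went from 0.640 and 0.798 FPKM to 786.1 and 773.7 FPKM, a change of 8.83, while the wild-type NPC mean was 439.8 FPKM. Both genes of this cluster were below 1 FPKM in both ESC libraries and high in both NPC libraries. Peg3, a zinc-finger gene, rose by 5.25, Dlk1, a non-canonical Notch ligand, by 4.29 and Gnas by 3.07. Cdkn1c, the imprinted cell-cycle inhibitor p57, went from 0.219 and 0.512 FPKM to only 2.68 and 3.36 FPKM, against a wild-type NPC mean of 98.4 FPKM. Its difference was -3.96 ± 0.21 (adjusted p = 0.00021). Grb10, an adaptor of insulin receptor signalling, changed by -0.07 in the knockout without passing the test, against 1.82 in the wild type.

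Of 16 tested genes of the IGF axis, 13 rose and 3 fell. Igfbp5, a binding protein of the ligand, went from 0.181 and 0.0462 FPKM to 169.2 and 154.8 FPKM, a change of 7.19 and a difference of 1.84 ± 0.16 (adjusted p = 0.00067). Igfbp4 rose by 6.24. Igfbp2, another binding protein, fell from 90.7 and 101.3 FPKM to 20.8 and 24.7 FPKM, a change of -2.03 against 0.55 in the wild type. Igf2r, the receptor that clears the ligand, fell by 0.94 in the knockout and rose by 0.68 in the wild type, a difference of -1.62. Ligand and binding proteins 4 and 5 were thus high in knockout NPC, while binding protein 2 and the clearance receptor were lower than in ESC.

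Among signalling pathways, 19 of 24 tested Wnt genes rose and 4 fell. The ligand Wnt5a, of non-canonical signalling, was listed at 0 in both ESC libraries and reached 19.5 and 15.4 FPKM, with a difference from the wild type of 1.93 (adjusted p = 0.0013). The potentiator Rspo3 rose by 3.50 and the antagonist Sfrp1 by 2.22, and the target Axin2 fell by 1.27. Of 22 tested BMP and TGF-beta genes, 16 rose and 5 fell. The BMP targets Id2 and Id3 rose by 5.60 and 3.14. Nodal fell by 4.37, and Lefty2, its secreted antagonist, fell by 6.92. Of 13 tested Hedgehog genes, 11 rose and 1 fell, and the co-receptor Gas1 rose by 5.13. Of 13 tested Notch genes (19 listed), 7 rose and 3 fell, and 4 had a more negative change in the knockout. Of 19 tested FGF-ERK genes, 8 rose and 8 fell, near the 42.6% and 30.2% of all genes. The ESC ligand Fgf4 fell by 5.30. The immediate-early target Egr1 went from 0.130 and 0.121 FPKM to 72.9 and 114.5 FPKM, a change of 6.36, and Fos rose by 4.47.

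Of 13 tested genes of the PRC1-AUTS2 complex, 6 rose and 3 fell, and the median was 0.19 against 0.17 for all genes. These shares are near those of all genes tested (42.6% higher, 30.2% lower), so the counts show nothing about the complex as a group. Auts2 stood at 1.76 and 1.74 FPKM in ESC and at 7.87 and 8.20 FPKM in NPC, a change of 1.72 ± 0.12 (adjusted p = 8.2e-06). The wild-type NPC mean was 14.4 FPKM. The difference was -0.90 (adjusted p = 0.0147), but 1 library decided this call, since without knockout NPC replicate 1 the adjusted p was 0.0548. Pcgf3, a subunit that defines the complex, stood at 15.0 and 12.1 FPKM in ESC and 20.0 and 20.9 FPKM in NPC, a change of 0.57. Pcgf5, its alternative, stood at 2.64 and 2.40 FPKM in ESC and 2.04 and 2.90 FPKM in NPC, and its libraries overlapped (-0.03, adjusted p = 0.929). The ubiquitin ligase Rnf2 stood at 48.9 FPKM in both ESC libraries and at 60.7 and 57.9 FPKM in NPC. Its change of 0.27 was lost with median-ratio scaling (0.08, adjusted p = 0.315). Yaf2 rose by 2.27 and its paralog Rybp fell by 0.61.

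Of 26 other Polycomb genes tested, 10 rose and 9 fell, or 8 and 12 with median-ratio scaling. Cbx7, the chromodomain subunit of canonical complexes in ESC, fell by 4.22 to a mean of 0.888 FPKM, while Cbx2 rose by 1.91. Eed, a core subunit of the methyltransferase complex, fell by 2.08, and Phc2 rose by 2.53. Of 13 tested DNA methylation genes, 6 rose and 5 fell. The counts of these 2 lists are near the shares of all genes tested (42.6% higher, 30.2% lower), so they show nothing about either list as a group. Dnmt3l, the cofactor of germ cells and ESC, fell by 7.18, Dnmt3b by 2.13 and Tet1 by 2.84, while Dnmt3a rose by 2.48 and Tet3 by 3.12. Of 14 tested genes of the BAF remodelling complex, 9 rose and 2 fell, led by Smarca2 (3.19) and Smarcc2 (2.48). Of 9 tested kinase and CUL4 partners of WDR68, 7 rose and 2 fell. The kinases Dyrk1b and Hipk2 rose by 2.18 and 1.95, and the scaffold Cul4b fell by 0.74.

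Of 20 tested DNA replication genes, 13 fell and 1 rose, with a median of -0.44 against -0.94 in the wild type, where 18 fell. The change was more positive in the knockout for 13 of the 20, and for fewer with any 1 library left out. Of 20 tested mitosis genes, 10 fell and 5 rose, and between 6 and 15 fell depending on the scaling. Mcm2, a subunit of the replicative helicase, fell by 1.09, and the proliferation marker Mki67 rose by 1.10. Ccnd2, cyclin D2, went from 2.04 and 1.55 FPKM to 145.7 and 160.4 FPKM, a change of 5.79. Of 19 tested p53 targets, 12 rose and 4 fell.

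Of 19 tested glycolysis and hypoxia genes, 15 fell and 2 rose, with a median of -1.15 against -0.57 in the wild type. Their sum went from 6742 to 7208 FPKM in ESC to 3148 to 3311 FPKM in NPC. For 12 of them the change was more negative in the knockout, and for 6 to 11 with 1 library left out. Slc2a3, the high-affinity glucose transporter, went from 428.1 and 409.1 FPKM to 17.9 and 19 FPKM, a change of -4.43 ± 0.09 and a difference of -1.02 (adjusted p = 0.0033). Slc2a1, the general glucose transporter, went from 68.2 and 74.7 FPKM to 21.2 and 27.1 FPKM. It fell by 1.53 in the knockout and changed by 0.32 in the wild type without passing the test, a difference of -1.85 (adjusted p = 0.0029). Vegfa, a hypoxia target, rose by 3.15. Of 83 tested cytosolic ribosomal protein genes, 64 fell and 0 rose, and of 77 tested subunits of oxidative phosphorylation, 36 fell and 9 rose. With quantile normalization these directions were not kept, at 18 falling and 13 rising ribosomal genes and 18 falling and 23 rising subunits, so no direction is given for either family. Of 36 tested proteasome genes, 28 fell and 0 rose, and 14 fell and 3 rose with quantile normalization.

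The wild-type cells, measured at the same stages, show how much of this course was shared among the genes tested. Of the genes tested, 4976 rose (40%) and 4049 fell (32.6%) in the wild type. Both genotypes rose at 4371 genes, which are 82.5% of those that rose in the knockout and 87.8% of those that rose in the wild type. Both fell at 3208 genes, 85.6% and 79.2% respectively. These shares leave out 712 genes that reached 1 FPKM in at least 2 wild-type libraries but did not pass the limit in the knockout. With the limit over all 8 libraries, 5538 genes rose and 4137 fell in the wild type. Among the 12431 genes, knockout and wild type were called in opposite directions at 66 genes that rose and 76 that fell in the knockout. The change itself differed between the genotypes at 1743 genes (14% of those tested), more positive in the knockout at 1033 (8.31%) and more negative at 710 (5.71%). The excess of positive differences depended on the limit, which was set on knockout libraries. With the limit over all 8 libraries, 1120 were more positive and 1117 more negative, and with no limit 1033 and 1103. With median-ratio scaling they were 810 and 764. The count of 1743 rested on all libraries. Without wild-type NPC replicate 1 it was 1375, and without any other single library it was 884 to 1138.

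The genes with the most positive difference, predicted and small RNA genes aside, were Foxf1 (3.72), Fendrr (3.51), Grin2c (3.43), Sh3bgr (3.24), Hba-x (3.18), Gata4 (3.11), Sel1l3 (2.98) and Neurl3 (2.93). Grin2c, a glutamate receptor subunit, was listed at 0 in both knockout ESC libraries and stood at 15.7 and 14.6 FPKM in knockout NPC, against a mean of 0.604 FPKM in wild-type NPC. The genes with the most negative difference were Tagln3 (-4.82), Ckb (-4.76), Igfbpl1 (-4.61), Stmn2 (-4.50), Tubb3 (-4.46), Fez1 (-4.45), Fzd10 (-4.18) and Fabp7 (-4.15). Of these 8, Tagln3, Stmn2 and Tubb3 are in the list of neurons and Fabp7 is in that of neural progenitors.

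**Figure D4:**
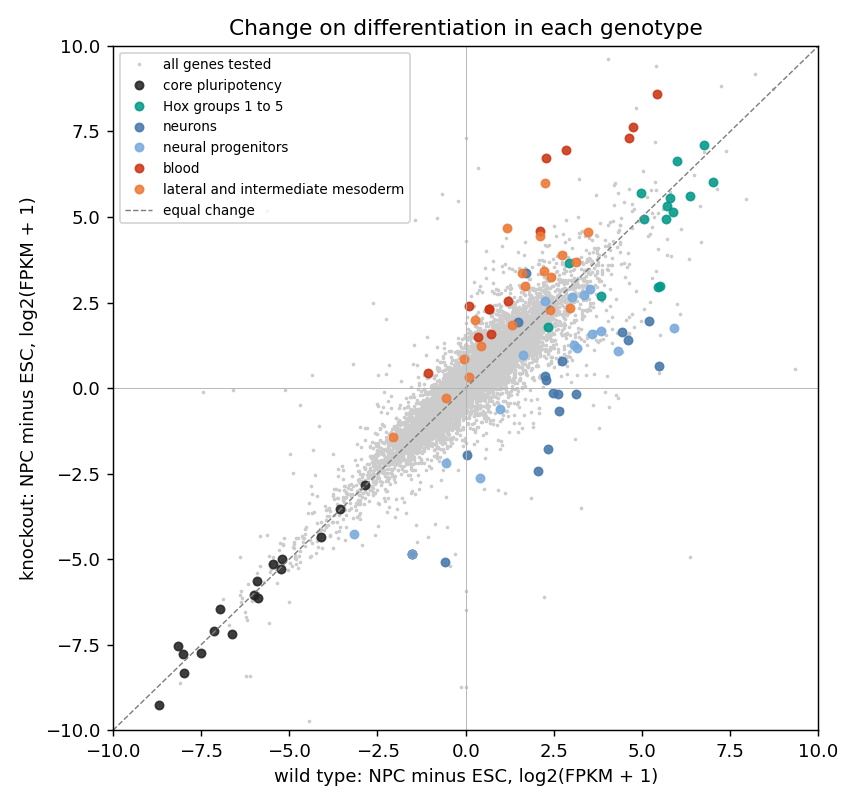
Change from ESC to NPC in the wild type (horizontal axis) against the knockout (vertical axis), both in log2(FPKM + 1), with 1 point per gene, selected lists in colour and a dashed line of equal change; 5 small RNA genes lie beyond the axes. Core pluripotency genes lie at the lower left (medians -5.96 and -6.08), with Sox2 below the line (-1.51 and -4.85), neuronal genes lie below it (medians 2.48 in the wild type and 0.24 in the knockout) and blood genes lie above it (medians 1.20 and 2.53).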

How the data were processed

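Poly(A) RNA of 8 libraries was sequenced with a directional kit, per the labels' protocols. TopHat2 2.1.1, Cufflinks 2.2.1 and the mm9 genome are named in the submitters' processing notes. The authors deposited FPKM values with confidence bounds per gene for each library, and read counts were not used here. Fragment numbers are estimates worked out from each FPKM value and its upper confidence bound. Entries with the same symbol were summed, and 12 symbols with a failed estimate were left out of 24318. Tests used limma 3.58.1 (R 4.3.3) on log2(FPKM + 1) over all 8 libraries, with 4 group means, 4 residual degrees of freedom, a mean-dependent variance prior and Benjamini-Hochberg adjustment over the 12431 genes. A difference between genotypes is the knockout change minus the wild-type change. The test of the knockout change was run on simulated data with independent libraries and far fewer changed genes than were called here. The test of the difference between genotypes was not. Such a simulation cannot show whether the spread of the duplicates is only technical.

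Named genes were the 15 largest rises and falls (mean of at least 5 FPKM, no overlap, no predicted, histone or small RNA genes), up to 4 members per list, the 8 largest differences in each direction, and fixed genes and markers. Others were chosen after their values were seen. The members and lists were chosen with earlier results of these data known. Gene positions are mm9. RefSeq promoter windows on GRCm38.p6 were matched by symbol for 9320 tested genes. Alternatives were pseudocount, filter, scaling, a replicate block, a fit of the knockout alone and leaving out each library.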

Additional observations from a re-analysis of the deposited data

Results flagged for a closer look

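The change from ESC to NPC differed between knockout and wild type, by the test of the difference itself in limma over 12431 genes, for the genes that follow, with adjusted p below 0.05. The sizes are knockout change minus wild-type change in log2(FPKM + 1). The most positive were Foxf1 (3.72), Fendrr (3.51), Grin2c (3.43), Sh3bgr (3.24), Hba-x (3.18), Gata4 (3.11), Sel1l3 (2.98) and Neurl3 (2.93). The most negative were Tagln3 (-4.82), Ckb (-4.76), Igfbpl1 (-4.61), Stmn2 (-4.50), Tubb3 (-4.46), Fez1 (-4.45), Fzd10 (-4.18) and Fabp7 (-4.15).

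Members of the described lists that were called in opposite directions in the genotypes, with a difference of at least 1.5, were also taken up, after their values were seen. Among neural genes these were Ina (-4.12), Stmn3 (-3.30), Zic2 (-3.01), Celf4 (-2.95), Nova2 (-2.55), Elavl2 (-1.90) and Sox1 (-1.59), each lower after differentiation in the knockout and higher in the wild type. The Notch modifier gene Mfng (-1.92), Igfbp2 (-2.59) and Igf2r (-1.62) showed the same pattern. Tek (1.51) rose in the knockout and fell in the wild type.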

How the results depend on the processing

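Of 275 named genes tested, 271 were called in the knockout, and most had been picked because they were called with large changes. The counts that follow therefore do not measure how stable other genes are. Leaving out a wild-type library alters only the spread estimate of a knockout change, not its size. Over 4904 values under the alternatives, 4884 kept direction and side of the threshold, 16 were no longer past it, 4 newly passed it and 0 changed direction. Those no longer past it were in Apom, Six4, Rnf2, Sox1 and Psmb10. Leaving out 1 library each, the genes changed numbered 8135 to 9006 (4758 to 5275 higher, 3328 to 3747 lower; at least 2-fold, 2763 to 2841 higher and 1551 to 1597 lower). Genes whose change differed between genotypes numbered 884 to 1375, of which 464 to 809 were more positive and 420 to 566 more negative in the knockout. With a limit of 5 FPKM, 1819 genes rose at least 2-fold and 408 had a more negative change in the knockout. The latter were 1117 with the limit over 8 libraries and 1103 with no limit, where more genes are tested. With 0.1 FPKM added, 8910 genes changed and 1315 differed between genotypes. With 1 library left out, the difference between genotypes ranged from -0.88 (without knockout ESC replicate 2) to 1.14 for Hotairm1 and from -1.17 to 0.62 (without wild-type NPC replicate 1) for Fam25c, so it changed direction, and the cause was not tested. The replicate numbers are not said to mark a shared batch, and the deviations of same-numbered libraries correlated at -0.077 between knockout ESC and knockout NPC and at -0.094 to 0.243 over all pairs of groups, so they were not taken to pair the libraries. With them as a block 9002 genes changed and 1610 differed between genotypes. Duplicates limit all values, and low levels rest on few fragments.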
